A study of Homo sapiens with 6 samples.

Results

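ID1, ID2, ID3 and SMAD7 are a small group of genes that BMP and TGF-beta signalling is known to switch on. They were taken by gene name from the authors' deposited table and make up 4 of its 1099 genes. They had been chosen because all 4 were lower with extract in that table, so their difference between the groups is given as a description, with no test. Poly(A) RNA had been sequenced from 6 libraries of human cells labelled A549 (a lung adenocarcinoma line), genotype WT, grown in medium with serum. Cells had been kept for 24 h with F/B extract (3 libraries) or with DMSO as its vehicle (3 libraries). By the title of the series the extract is of Flos Sophorae Immaturus and broccoli seed, and belongs in a study of tumour growth, G2/M arrest and the epithelial to mesenchymal transition; the dose is not given in the sources used here. Nothing in the labels says that the replicates are separate cultures, so spreads and p-values cover these libraries only and may be technical.

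The ID proteins are helix-loop-helix proteins without a DNA-binding region. They pair with E proteins and other basic helix-loop-helix (bHLH) transcription factors and hold them off DNA, and they are known for keeping cells undifferentiated and cycling. BMP receptors act on ID genes through SMAD1, SMAD5 and SMAD4. SMAD7 is the inhibitory SMAD: it binds the activated receptors, blocks the other SMADs and recruits ubiquitin ligases, and since TGF-beta and BMP signals induce it, it closes a negative feedback loop.

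The table was itself selected on the comparison: its genes are the 9.74% with the lowest p-values among 11289 that the authors tested. Estimated counts over the listed genes summed to between 3084337 and 3242553 in extract libraries and to between 3436540 and 4640114 in vehicle libraries, which are not sequencing depths. The label A549 is in doubt. The library names start with AGS, the name of a gastric adenocarcinoma line, and MTAP, deleted in A549 as background knowledge has it, was present at 48.9 to 60.5 TPM (transcript abundance scaled to a fixed total per library) over the 6 libraries. Of 14 lung epithelial markers 0 were listed, which does not bear on their level, since genes with little difference between the groups were left out of the table. Of 16 gastrointestinal epithelial markers 5 were listed (VIL1, CDH17, TFF1, REG4 and TSPAN8), with summed levels of 438 to 447 TPM in extract libraries and 530.2 to 561 TPM in vehicle libraries. All 5 were lower with extract, as were 712 of the 1099 listed genes, and 4 passed the edgeR test, by which 52.9% of the listed genes were called lower. Their part in the values of the ID genes and SMAD7 was not tested. Of 10 fibroblast and endothelial markers COL1A1 was listed, and of 8 leukocyte markers 0 were.

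ID3 was the most reduced of the 4 genes. Its normalised counts (estimated counts divided by library size factors) were 284, 253 and 203 in extract replicates 1 to 3, against 702, 663 and 662 in vehicle replicates 1 to 3. The groups were far apart: the highest extract library was at 42.9% of the lowest vehicle library. Means were 247 ± 40.7 with extract and 676 ± 23.2 with vehicle (SD, n = 3 each), which put its log2 fold change at -1.45 (SE 0.11), or 63.5% lower. The SE, here and for other genes, rests on a spread estimated from genes selected on small p-values and may be too small. ID3 (ENSG00000117318) lies on chromosome 1 from 23557918 to 23559794, minus strand, GRCh38.

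ID1 had the highest level of the 4 and the next largest reduction. Its normalised counts were 1899, 1838 and 1433 in extract replicates 1 to 3, against 2757, 2473 and 2983 in vehicle replicates 1 to 3. Extract replicate 3 stood below the other extract libraries, as it did for ID3, and the groups did not overlap. ID1 averaged 1723 ± 253 with extract and 2738 ± 256 with vehicle (SD, n = 3 each), which put its log2 fold change at -0.67 (SE 0.10), or 37.0% lower. ID1 (ENSG00000125968) lies on chromosome 20 from 31605283 to 31606515, plus strand.

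ID2, the ID protein that is also known to bind the retinoblastoma protein, had normalised counts of 444, 375 and 409 in extract replicates 1 to 3, against 557, 531 and 581 in vehicle replicates 1 to 3. Here extract replicate 2 was the lowest, and the groups did not overlap. The means were 409 ± 34.2 with extract and 556 ± 25.1 with vehicle (SD, n = 3 each), which put its log2 fold change at -0.44 (SE 0.08), or 26.4% lower. ID2 (ENSG00000115738) lies on chromosome 2 from 8678845 to 8684453, plus strand. The annotated antisense gene ID2-AS1 shares 38 of the 2205 exonic bases of ID2, and whether counting used strand is not given in the sources used here, so reads there cannot be assigned to either gene with certainty.

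SMAD7 was the least reduced. Its normalised counts were 441, 438 and 493 in extract replicates 1 to 3, against 548, 558 and 583 in vehicle replicates 1 to 3. The groups did not overlap, but the highest extract library reached 89.9% of the lowest vehicle library. The means were 457 ± 30.9 with extract and 563 ± 17.8 with vehicle (SD, n = 3 each), which put its log2 fold change at -0.30 (SE 0.07), or 18.8% lower. SMAD7 (ENSG00000101665) lies on chromosome 18 from 48919853 to 48952052, minus strand.

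**Figure D1:**
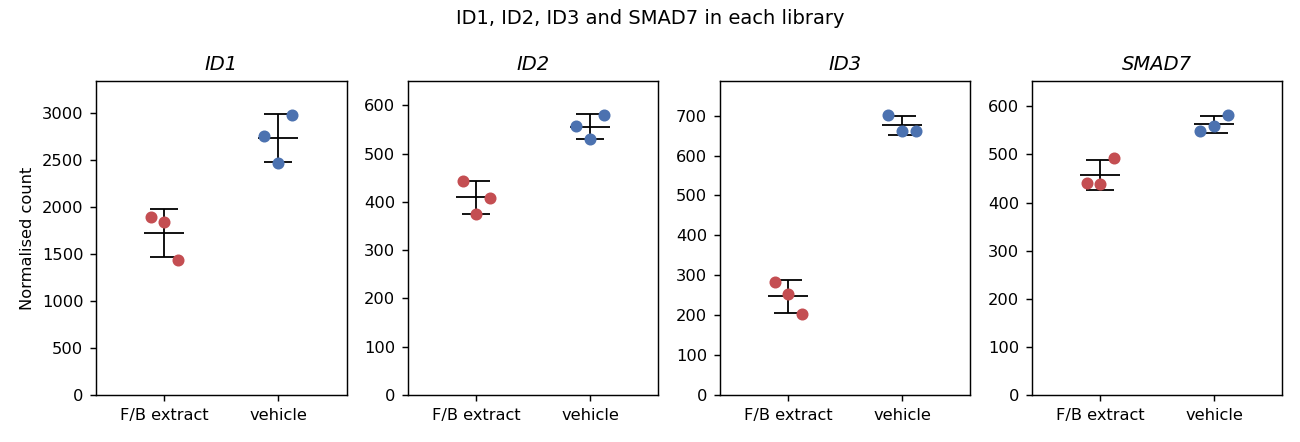
Normalised counts (vertical axes, from 0) of ID1, ID2, ID3 and SMAD7 in each of 3 F/B extract libraries (red, left) and 3 vehicle libraries (blue, right); bars give the mean ± SD. The groups are apart for all 4 genes, widely for ID3 (at most 284 with extract, at least 662 with vehicle) and narrowly for SMAD7 (at most 493 with extract, at least 548 with vehicle).

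All 4 genes were lower with no overlap between the groups, as were 63.9% of the listed genes, while 34.6% were higher without overlap, so that count says little beyond the selection of the table. In the authors' deposited table, 6.09% of the 11289 tested genes were lower with extract at an adjusted p under 0.05 and 3.25% were higher, and the 4 genes were picked from these. Size set the 4 apart from one another more than direction did. Counted from the lowest log2 fold change, ID3 ranked 3, ID1 ranked 51, ID2 ranked 113 and SMAD7 ranked 327 of 1099. The median of all listed genes was -0.22, and 11 genes were below -1. Relative to that median ID3 stood at -1.23, ID1 at -0.45, ID2 at -0.22 and SMAD7 at -0.08, so that SMAD7 was close to the typical listed gene.

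**Figure D2:**
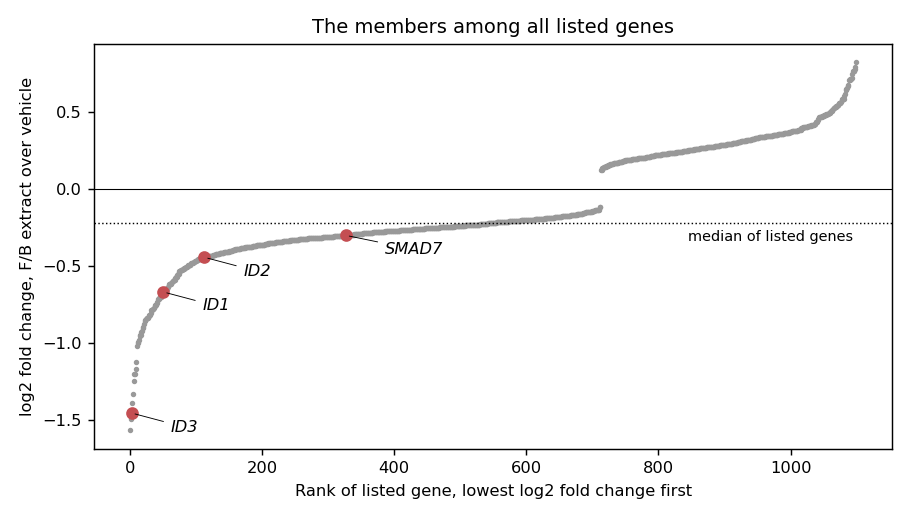
The log2 fold change, F/B extract over vehicle (vertical axis), of all 1099 listed genes in rank order (horizontal axis, lowest first), with the 4 genes in red and the median of the listed genes as a dotted line. ID3 sits at rank 3 at the steep end, ID1 and ID2 at ranks 51 and 113, and SMAD7 at rank 327 on the flat part near the median of -0.22; no listed gene lies near 0 because the table was selected on small p-values.

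The scale of the libraries bears on these values, since it was taken from listed genes or from the authors' fold changes. On 4 other scales the median of the listed genes moved up by 0.09 to 0.17, and all 4 genes stayed lower with extract. SMAD7 then stood at -0.12 to -0.21, and on 3 of these scales its groups overlapped: with size factors that DESeq2 computed from listed genes, its highest extract library was at 529.6 normalised counts and its lowest vehicle library at 520.4. ID1, ID2 and ID3 showed no overlap on any of the 5 scales. Of the 1099 listed genes, 702 were lower without overlap on the scale used for the reported values. With TMM, DESeq2 size factors, sums over the listed genes and the TPM scale the number was 342, 292, 416 and 563. Deposited TPM values, which the authors scaled over the whole library, gave 17.3, 16.3 and 18.6 in extract libraries and 21.1, 20.0 and 22.7 in vehicle libraries for SMAD7, again without overlap. In bulk RNA, fewer cells that express a gene and less of its RNA per cell cannot be told apart.

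Ratios of 2 genes within a library do not depend on that scale. Per 100 estimated counts of ID1 there were 14.95, 13.8 and 14.2 counts of ID3 in extract replicates 1 to 3, against 25.5, 26.8 and 22.2 in vehicle replicates 1 to 3. ID3 was thus lower relative to ID1 in each extract library, with means of 14.3 ± 0.59 with extract and 24.8 ± 2.37 with vehicle (SD, n = 3 each). ID2 had 23.4, 20.4 and 28.5 counts per 100 of ID1 in extract libraries and 20.2, 21.5 and 19.5 in vehicle libraries. Here the groups overlapped. SMAD7 had 23.3, 23.8 and 34.4 counts per 100 of ID1 with extract, against 19.9, 22.6 and 19.5 with vehicle. These groups were apart. The high value of extract replicate 3 went with its low ID1 and with its SMAD7, the highest of the extract libraries. Set against ID2 instead, SMAD7 had 99.5, 116.7 and 120.7 counts per 100 with extract and 98.5, 105 and 100.3 with vehicle, which overlapped.

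**Figure D3:**
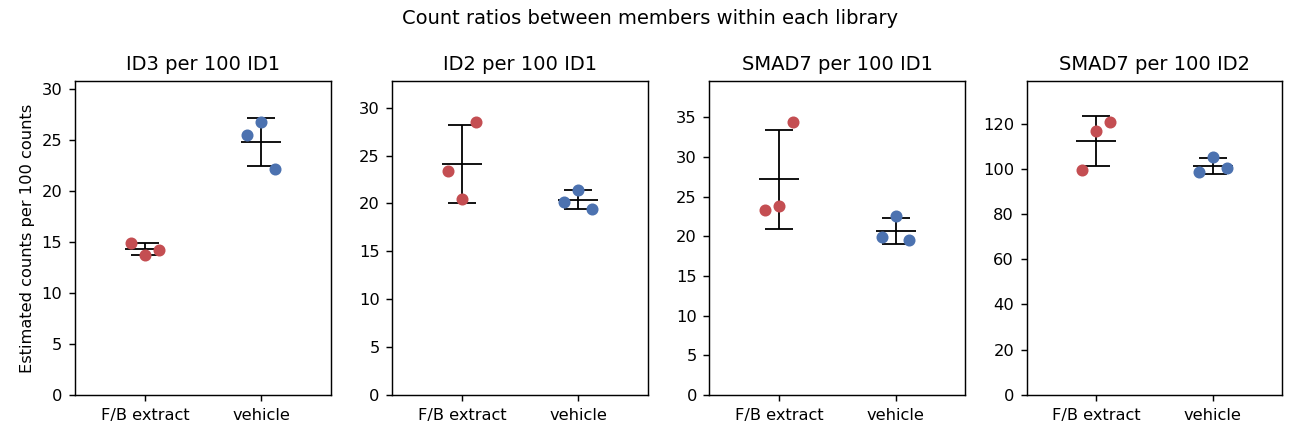
Estimated counts of one gene per 100 counts of another within each library (vertical axes, from 0), for F/B extract (red, left) and vehicle (blue, right), with mean ± SD. ID3 per 100 of ID1 lies at 13.8 to 14.95 with extract and at 22.2 to 26.8 with vehicle, while ID2 per 100 of ID1 and SMAD7 per 100 of ID2 overlap between the groups.

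Levels between genes can be compared per length, in TPM. ID1 was at 209.8, 209 and 169 TPM in extract libraries and at 299, 260.02 and 319.65 TPM in vehicle libraries, the highest of the 4 genes in each library. ID3 was at 33.8, 31.0 and 25.7 TPM with extract, against 81.5, 74.3 and 76.0 TPM with vehicle. ID2 was at 42.4, 32.7 and 37.5 TPM with extract, against 51.3, 45.9 and 54.8 TPM with vehicle. ID3 therefore lay below ID2 in each extract library, although their ranges overlapped there, and above ID2 in each vehicle library, with ranges apart; SMAD7 was the lowest of the 4 in each library. The 3 ID genes summed to 264 ± 28.3 TPM with extract and 421 ± 36.4 TPM with vehicle (SD, n = 3 each). ID3 made up 11.4% ± 0.36 of that sum with extract and 18.4% ± 1.39 with vehicle, and ID1 made up 74.3% ± 2.11 with extract and 69.5% ± 1.31 with vehicle.

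The place of ID2 in that order depends on the length used. The deposited length of ID2 was 623 bases, which equals the annotated transcript ID2-202, whereas its counts and TPM imply 1076 to 1230 bases when set against the median listed gene. Normalised counts per kb of deposited length put ID2 above ID3 in vehicle libraries as well, at 892 ± 40.3 for ID2 and 711 ± 24.4 for ID3 (mean ± SD, n = 3). ID1 and ID3 had implied lengths that varied little between libraries (934 to 950.5 and 867 to 888 bases, against deposited lengths of 983 and 950). SMAD7 varied more, from 2607 to 2973 bases against a deposited 3341. ID2 has 4 annotated transcripts and SMAD7 has 8, against 2 for ID1 and 3 for ID3 (GENCODE annotation, GRCh38).

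Sequence next to the RefSeq start sites (GRCh38.p14) is shown because the 4 genes share regulators. Letters were searched on both strands in the 250 bases before each start: 1 window each for ID1, ID2 and ID3 and 3 for SMAD7. The letters CAGAC, which SMAD3 and SMAD4 are known to bind, were in the ID3 window and in 2 of the 3 SMAD7 windows, and in 38% of all 35116 windows. They were not in the ID1 and ID2 windows. GGCGCC, the core of the known BMP response element, was in 0 of the 6 windows and in 16.4% of all windows, and GTCT joined to AGAC was in 0 of 6 and in 0.182% of all. CANNTG, the E-box of bHLH factors, was in the ID2 window and in 2 SMAD7 windows, and in 61.8% of all. TATAAA was in the ID1 window, 31 bases before the start, and in 1 SMAD7 window, and in 10.7% of all; GGGCGG and CCAAT were in the ID1 and ID2 windows, and in 42.6% and 32% of all. A match is not a measured binding site, and absence from these 250 bases does not show that a gene lacks the letters farther away. The lines below run 5′ to 3′ along each gene, in lower case with the searched letters, on either strand, in capitals. In the ID3 and SMAD7 lines the capitals mark CAGAC, in the first ID2 line CCAAT, in the second the E-box and the GC box GGGCGG, and in the ID1 line the TATA, GC and CCAAT boxes.
ID3, chr1:23559631-23559660, minus strand: ggtcttcggcgtCAGACcagccggaggaag
SMAD7, chr18:48951165-48951194, minus strand: gccggacgccccCAGACctctgaggttcga
SMAD7, chr18:48951076-48951105, minus strand: ttcttattttgcCAGACgtctcatgcgggg
SMAD7, second start, chr18:48949509-48949538, minus strand: actgctcctgcaGTCTGcggttaaaaatta
ID2, chr2:8681966-8681995, plus strand: tgccaccttccgCCAATggggacgaaggga
ID2, chr2:8681847-8681876, plus strand: acccCAGCTGggctcgcgccCCGCCCaccc
ID1, chr20:31605039-31605282, plus strand: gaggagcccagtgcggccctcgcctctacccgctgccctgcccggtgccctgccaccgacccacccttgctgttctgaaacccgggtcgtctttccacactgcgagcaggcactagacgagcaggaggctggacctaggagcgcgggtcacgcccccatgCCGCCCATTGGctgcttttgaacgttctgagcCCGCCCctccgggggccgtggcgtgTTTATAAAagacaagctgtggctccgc
The ID1 stretch lies wholly before the annotated gene. The ID3 stretch and the first 2 SMAD7 stretches fall within first exons of longer annotated transcripts, and the ID2 stretches largely within exons of other ID2 transcripts, so the start in use in these cells was not resolved by the deposited gene-level values.

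The rest of the pathway was read from 5 lists of BMP and TGF-beta genes. The lists were chosen with earlier results of these data known. Of 108 genes other than the 4, 12 were in the table (11.1%, beside 9.74% of all genes tested by the authors). Of these 12, 8 were lower and 4 higher with extract, beside 712 lower and 387 higher of all 1099 listed genes. Genes were tested by edgeR's quasi-likelihood test with Benjamini-Hochberg adjustment over the 11289 genes the authors tested, at a threshold of 0.05. By it 8 of the 12 fell and 2 rose, beside 52.9% of all listed genes called lower and 28.9% called higher, and the median log2 fold change was -0.25, beside -0.22 for all listed genes. The spread was estimated from genes selected on small p-values, so these p-values and the SEs may be too small. On 4 other scales 1 of the 8 was called lower in each case, as without vehicle replicate 2 or vehicle replicate 3, and without extract replicate 2 it was 2 and without extract replicate 3 it was 4.

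Of the 18 ligands and 15 receptors on these lists 0 were in the table. INHBE, a ligand of the wider family that was not on the lists, was in the table and is given below. Of 20 extracellular regulators 2 were listed. FSTL3, a follistatin-related binder of activins, had 2091 ± 140.0 normalised counts with extract and 2568 ± 179.8 with vehicle (SD, n = 3 each), and fell at -0.30 (SE 0.07, edgeR adjusted p = 0.0234). LTBP3, which tethers latent TGF-beta to the matrix, rose to 1109 ± 32.03 with extract, against 916.5 ± 37.0 with vehicle, at 0.27 (SE 0.05, edgeR adjusted p = 0.0159). LTBP3 no longer passed when vehicle replicate 2, vehicle replicate 3 or extract replicate 2 was left out.

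Of 26 SMADs and intracellular regulators 4 were listed, and SMAD1 to SMAD6 and SMAD9 were not among them. TGIF2, a homeodomain co-repressor of SMADs, fell (-0.27, SE 0.06, edgeR adjusted p = 0.0240), as did TOB1, an antiproliferative protein known to restrain SMADs in BMP signalling (-0.22, SE 0.05, edgeR adjusted p = 0.0286). The co-repressors SKI and SKIL had log2 fold changes of 0.18 and 0.22 and missed the threshold (edgeR adjusted p = 0.0558 and 0.140). Both passed with TMM or DESeq2 size factors, where TGIF2 and TOB1 did not. SKI had 1963 ± 78.8 normalised counts with extract and 1729 ± 65.6 with vehicle, and SKIL had 4146 ± 377 with extract and 3561 ± 276 with vehicle (SD, n = 3 each), where the SKIL groups overlapped.

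Of 29 other target genes 6 were listed (20.7%, beside 9.74% of all genes tested by the authors). Of the 6, 5 were lower and 1 higher, all past the threshold, beside 52.9% of all listed genes called lower and 28.9% called higher. TAGLN, the actin-binding transgelin, showed the largest decrease of the 12, with 4093 ± 213 normalised counts with extract and 6427 ± 176 with vehicle (SD, n = 3 each). It fell at -0.65 (SE 0.05, edgeR adjusted p = 0.000268), close to the value of ID1, and it passed in each of the 15 other settings tried. MSX2, a homeobox gene that BMPs induce, was at -0.29 (edgeR adjusted p = 0.0101), the matricellular CCN1 at -0.43, the collagen chain COL1A1 at -0.33 and the tropomyosin TPM1 at -0.23. For COL1A1 the TPM ranges overlapped, at 10.0 to 14.85 in extract libraries and 12.8 to 15.8 in vehicle libraries, and for TPM1 they overlapped too, at 214 to 259 in extract libraries and 256 to 271 in vehicle libraries. VIM, the intermediate filament protein vimentin, rose to 149.98 ± 5.12 with extract, against 94.0 ± 6.22 with vehicle, at 0.67 (SE 0.12, edgeR adjusted p = 0.0111). Its level was low, at 9.44 to 12.2 TPM in extract libraries and 4.32 to 7.5 TPM in vehicle libraries. The call for VIM was lost when extract replicate 2 or either of vehicle replicates 2 and 3 was left out. ID4, the other member of the ID family, was not in the table.

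**Figure D4:**
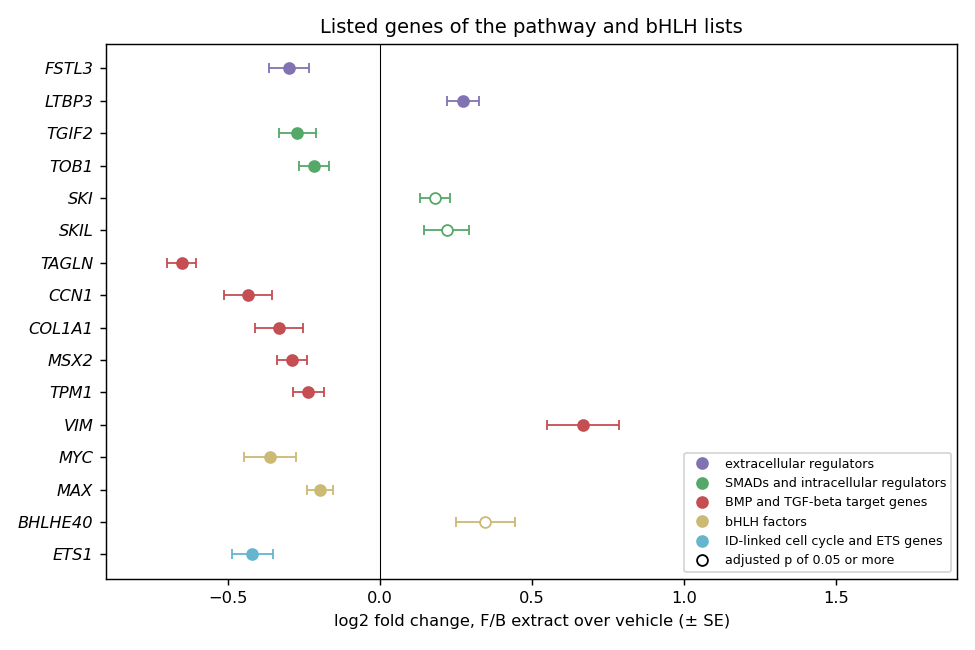
Log2 fold changes, F/B extract over vehicle (horizontal axis, ± SE), of the 16 listed genes of the pathway lists and of the bHLH and ID-linked lists; filled points passed an edgeR adjusted p of 0.05 and open points did not. TAGLN at -0.65 is the lowest and VIM at 0.67 the highest, and SKI, SKIL and BHLHE40 are the open points.

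Factors that ID proteins act on belong to the bHLH family, and whether ID proteins act on each of its members was not tested. A list of 37 bHLH genes was read. Of these 3 were listed (8.11%, beside 9.74% of all genes tested by the authors), and the E protein genes TCF3, TCF4 and TCF12 were not among them. MYC, known as a bHLH factor whose partner is MAX, had 3826 ± 518 normalised counts with extract and 4908 ± 261 with vehicle (SD, n = 3 each), at -0.36 (SE 0.09, edgeR adjusted p = 0.0322). MAX was at -0.20 (SE 0.04, edgeR adjusted p = 0.0248), with TPM ranges that overlapped, at 141 to 162 in extract libraries and 148 to 175 in vehicle libraries. BHLHE40, a repressor that BMP and TGF-beta are among the signals known to induce, had 1470 ± 189.9 with extract and 1157 ± 123 with vehicle, at 0.35 (SE 0.10, edgeR adjusted p = 0.0650). Of 14 ID-linked cell cycle and ETS genes ETS1, whose protein ID proteins are known to bind or oppose, was the only one listed, at -0.42 (SE 0.07, edgeR adjusted p = 0.00734), and CDKN1A and CDKN2A were not in the table. Of these 3 lower genes, 0, 0, 1 and 2 were called lower with TMM, DESeq2 size factors, sums over the listed genes and the TPM scale, and 1 when extract replicate 2, vehicle replicate 2 or vehicle replicate 3 was left out.

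The annotation deposited with the table was also read. It places 8 listed genes in the KEGG TGF-beta signaling pathway: the 4 genes and MYC, TGIF2, INHBE and RBX1. The first 4 had been chosen for being lower with extract. MYC, TGIF2, INHBE and RBX1 were lower as well and passed the test, where 712 of all 1099 listed genes were lower and 52.9% were called lower. TGIF2 lost its call on each of the 4 other scales, and MYC with TMM, DESeq2 size factors and sums over the listed genes. Both also lost it with the replicate block and when extract replicate 2, vehicle replicate 2 or vehicle replicate 3 was left out. Calls of INHBE and RBX1 under the other settings are not reported here. INHBE, the beta E chain of inhibin and activin and so a ligand of the wider family, had 1715 ± 148 normalised counts with extract and 2271 ± 235 with vehicle (SD, n = 3 each), at -0.41 (SE 0.08, edgeR adjusted p = 0.0184). RBX1, a subunit of cullin ubiquitin ligases, was at -0.30 (edgeR adjusted p = 0.0280). The 4 genes share the term for negative regulation of sequence-specific DNA binding transcription factor activity with 5 other listed genes (KLF4, PIM1, TRIB1, BHLHE40 and SP100), of which 3 were called lower and 0 higher by edgeR, beside 52.9% and 28.9% of all listed genes. Broader terms that the 4 share went both ways. Of the 39 other listed genes under negative regulation of transcription from RNA polymerase II promoter 19 were called lower and 14 higher, and of the 54 others under RNA polymerase II transcription factor activity 27 were called lower and 19 higher.

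Listed genes with the most similar profiles were found by the root mean square difference of log2 normalised counts over the 6 libraries, centred on the vehicle mean. For ID1 they were SAMD4A, an RNA-binding protein (0.05), C4BPB, a chain of the complement regulator C4b-binding protein (0.09), and the receptor GPRC5B (0.12). SAMD4A had 321, 315 and 251 normalised counts in extract replicates 1 to 3 and 459.8, 452 and 528 in vehicle replicates 1 to 3, so that extract replicate 3 was the lowest and vehicle replicate 3 the highest, as for ID1. For ID2 they were HSPE1, the mitochondrial co-chaperonin (0.06), the ribosomal protein gene RPS15A (0.06) and the calcium channel subunit gene CACNB1 (0.06). For ID3 they were the keratin KRT13 (0.15), CYP1A1, a cytochrome P450 and classical target of the aryl hydrocarbon receptor (0.20), and the keratin KRT81 (0.26), a wider distance that goes with the few genes so far down. For SMAD7 they were PAK1IP1, SOWAHC and NES (each 0.03). The median distance of eligible genes was 0.36 from ID1, 0.19 from ID2, 0.89 from ID3 and 0.14 from SMAD7. No gene of the group was among the 3 nearest of another: ID1 lay 0.22 from ID2, 0.33 from SMAD7 and 0.56 from ID3, ID2 lay 0.14 from SMAD7, and ID3 lay 0.73 from ID2 and 0.85 from SMAD7. Measured from ID1, ID2 and SMAD7 were thus nearer than the median gene, and ID3 was farther. Measured from ID2, SMAD7 was nearer than the median gene, and ID1 and ID3 were farther. Measured from SMAD7, ID2 was at about the median distance, and ID1 and ID3 were farther. Only measured from ID3 were the other 3 all nearer than the median gene. The members had been chosen for being lower with extract, where 387 listed genes were higher, so nearness to ID3 says little beyond that choice.

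**Figure D5:**
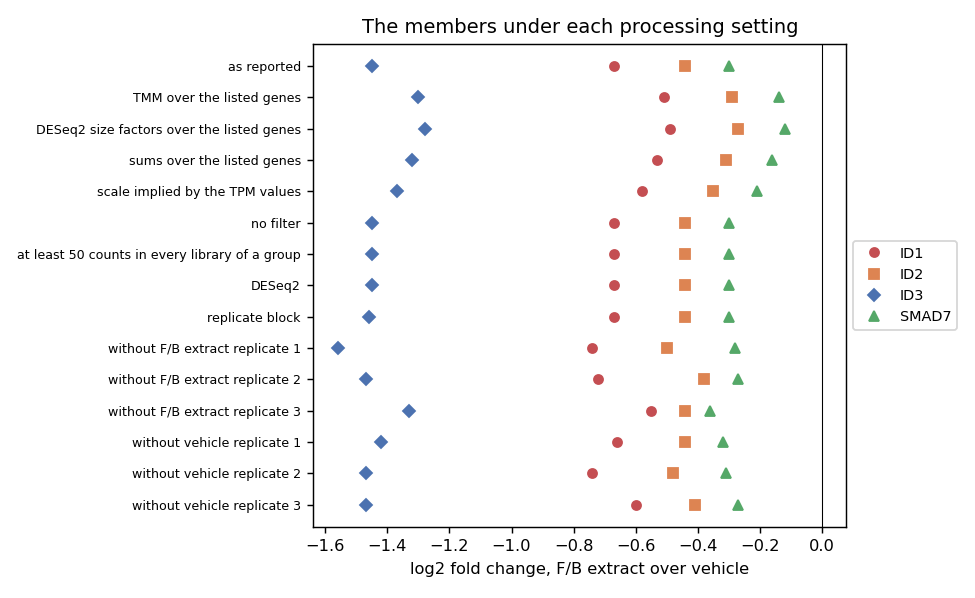
Log2 fold changes, F/B extract over vehicle (horizontal axis), of the 4 genes as reported (top) and under each other processing setting (rows below). ID3 stays between -1.56 and -1.28, ID1 between -0.74 and -0.49, ID2 between -0.50 and -0.27 and SMAD7 between -0.36 and -0.12, and in each row the order is ID3, ID1, ID2, SMAD7 from the lowest.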

How the data were processed

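Poly(A) RNA of 3 extract and 3 vehicle libraries was compared, grouped by the sample titles. The authors deposited 1 table with estimated counts, TPM and a length per gene, and their own fold change as a ratio, log2 fold change, p-value and adjusted p-value, per the file headers; their log2 fold changes are vehicle over extract, and all directions here are extract over vehicle. The authors' comparison was made with DESeq2, per the name of the table. The submitters' processing notes name GRCh38.p13 as build; aligner and counter were not found in the labels. Of the values, 31.8% to 35.9% per library were not whole, and the estimated counts were rounded. Replicates differed by more than sampling noise (chi-square per degree of freedom 4.59 to 15.3).

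Library size factors were recovered from the deposited fold changes (0.920, 0.959 and 0.935 for extract replicates 1 to 3, 0.9395, 1.235 and 1.045 for vehicle replicates 1 to 3; largest log2 difference from the deposited values 0.00135). Genes were fitted across the whole table with edgeR 4.0.16 in R 4.3.3. The fit was first tried on simulated data with most genes unchanged and a known library scale. In this table every gene was selected for its difference, so that trial does not show how the fit performs here. SE is the absolute log2 fold change over the square root of F. The low-count filter of edgeR removed no gene. Alternatives were DESeq2 1.42.0, 4 other scales, 2 other filters, adjustment over the listed genes, a replicate block and leaving out each library. The members and lists were chosen with earlier results of these data known. Named genes are the 4 members, all listed genes of the lists, and the 3 nearest profiles per member (pseudocount 1, a group mean of 5 TPM or more, clone, LOC and LINC names left out). Genes from the deposited pathway annotation and the comparison of ID2 and ID3 per deposited length were added after seeing the data. Promoter windows are RefSeq's, and gene positions GENCODE's.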

Additional observations from a re-analysis of the deposited data

How the results depend on the processing

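The 4 genes stayed lower with extract under each alternative that gave a value. Leaving out each library in turn gave log2 fold changes of -1.56 to -1.33 for ID3, -0.74 to -0.55 for ID1, -0.50 to -0.38 for ID2 and -0.36 to -0.27 for SMAD7. With TMM, DESeq2 size factors and sums over the listed genes ID2 stood at -0.29, -0.27 and -0.31 and SMAD7 at -0.14, -0.12 and -0.16, and on the TPM scale SMAD7 stood at -0.21; these scales raise the fold change of every gene. Listed genes called lower numbered 581, against 87, 86, 126 and 197 on these 4 scales in turn, while 318 called higher became 385, 387, 386 and 371, so that lower calls went from a majority to a minority. Pathway genes called were 8 lower and 2 higher, against 1 lower on each of the 4 scales and 4 higher with TMM, DESeq2 size factors or sums and with adjustment over the listed genes alone. Of the bHLH and ID-linked genes 3 were called lower and 0 higher by edgeR (1 higher by DESeq2, on each of the 4 scales and with adjustment over the listed genes); 0 were called lower with TMM or DESeq2 size factors and 1 with sums. Leaving out each library gave 50 to 287 listed genes higher and 128 to 570 lower, 0 to 3 pathway genes higher and 1 to 8 lower, and 0 to 1 of the bHLH and ID-linked genes higher and 1 to 3 lower; the fewest calls came without vehicle replicate 2 (50 and 128), vehicle replicate 3 (80 and 224) and extract replicate 2 (72 and 186). Deviations of same-numbered libraries were not positively correlated (-0.231, -0.0102 and -0.0324), and no library correlated best with its own number. With 3 libraries per group and genes selected on small p-values, this cannot show that the libraries were unpaired. With the replicate block 90 listed genes were called higher and 232 lower. It left 1 pathway gene called higher and 2 lower, and 1 of the bHLH and ID-linked genes lower. By level per deposited length, an alternative chosen after seeing the data, the log2 ratio of ID3 over ID2 turned to -0.33 in vehicle libraries, against 0.61 by TPM, and was -1.34 in extract libraries, against -0.32 by TPM. Both other filters gave the same counts of calls. Beyond these settings the cause of lost calls was not tested. Depth of the whole libraries is not given in the sources used here, and no gene outside the table was analysed here.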

Other observations

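The annotation terms that ID1 and SMAD7 share held listed genes of both directions. In the term for BMP signalling stood PDCD4, a translation inhibitor, which rose (log2 fold change 0.30, SE 0.08, edgeR adjusted p = 0.0434), with 1316 ± 80.7 normalised counts with extract and 1069 ± 114 with vehicle (SD, n = 3 each). RYR2, a calcium release channel, was at -0.60 and missed the threshold (edgeR adjusted p = 0.0619) at 1.83 to 4.82 TPM over the 6 libraries. In the term for TGF-beta receptor signalling, HIPK2, a nuclear kinase, rose to 1601 ± 56.2 with extract, against 1337 ± 34.3 with vehicle, at 0.26 (SE 0.05, edgeR adjusted p = 0.0131). PTPRK, a receptor tyrosine phosphatase, rose at 0.22 (edgeR adjusted p = 0.0175), and CGN, the tight junction protein cingulin, fell at -0.30 (edgeR adjusted p = 0.00431). These genes were chosen through the annotation after their values were seen, and their calls under the other settings are not reported here.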
